A study of Danio rerio with 56 samples.

Results

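The 200 transcripts described here were the most abundant RNAs of the unfertilised zebrafish egg that had nearly gone from the embryo by 10 hours post fertilisation (10 hpf). They were chosen on control libraries alone: a mean of at least 10 TPM (a relative level scaled by transcript length and library depth) in 4 control egg libraries, a mean in 4 control embryo libraries under 0.02 of that egg mean, and then the 200 highest egg means. Of 57192 transcript rows, 11597 reached 10 TPM in control eggs, and 824 of those (7.11%) also met the ratio. The fall from control eggs to control embryos therefore describes the choice and was not tested. Comparisons of BaP groups with control libraries were tested, but they share the libraries of the choice and are given as descriptions. The files name each row by a transcript identifier only, so the 200 are given by identifier, level and length, and no gene name or role is given.

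An egg is loaded by the mother with RNA and protein that run the first cell divisions, before the embryo's own genome is transcribed. In zebrafish this maternal RNA is then removed in waves, by shortening of the poly(A) tail through the CCR4-NOT complex, by the microRNA miR-430 made by the embryo, and by codon-dependent decay, while zygotic transcription takes over. An RNA that is degraded and not made again by the embryo falls to a trace by the end of gastrulation, which is the stage reached at 10 hpf. Benzo[a]pyrene (BaP) is a polycyclic aromatic hydrocarbon that binds the aryl hydrocarbon receptor and is converted to reactive metabolites.

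All libraries came from the 5D zebrafish strain. The parents were 120 days old and for 21 days were given flakes carrying the solvent acetone (control) or BaP, in a food concentration of 1250 µg per g that amounted to 25 µg for each g of fish. The 24 RNA libraries fell into 6 groups with 4 libraries each. These were control eggs, the eggs of mothers fed BaP (BaP eggs), and 10 hpf embryos of 4 crosses, namely control parents, only the mother BaP-fed (mother-BaP), only the father BaP-fed (father-BaP) and both parents BaP-fed (both-BaP). The last group is labelled only as BaP at 10 hpf and was read as both parents from the labels of the other 3 crosses. Totals were 36548517 to 55044612 estimated counts in eggs and 26010776 to 38130629 in embryos. Tanks and spawnings are not tied to replicates in the labels, so the spread between libraries may be technical. Fewer cells holding an RNA and less of it per cell cannot be told apart in these bulk libraries, and the labelled stages could not be checked against named marker genes.

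The 200 transcripts made up a large share of the egg's RNA and almost none of the embryo's. Their summed TPM was 18.3%, 18.3%, 17.7% and 18.7% of all TPM in the 4 control eggs. In the 4 BaP eggs, which had no part in the choice, it was 18.7%, 18.5%, 16.3% and 15.7%, a mean of 17.3% ± 1.51 (SD, n = 4). BaP egg replicates 3 and 4 were below every control egg, and replicates 1 and 2 lay within the control range. In control embryos the sum was 0.112% ± 0.00974 of all TPM (SD, n = 4). The mother-BaP embryos had 0.112%, 0.110%, 0.106% and 0.103%, all within or just under the control embryos' 0.104% to 0.126%. The father-BaP embryos had 0.137%, 0.111%, 0.191% and 0.150%, so 3 of the 4 were above all control embryos. The both-BaP embryos had 0.0890%, 0.227%, 0.126% and 0.103%, and replicate 2 alone was well above the others.

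**Figure D1:**
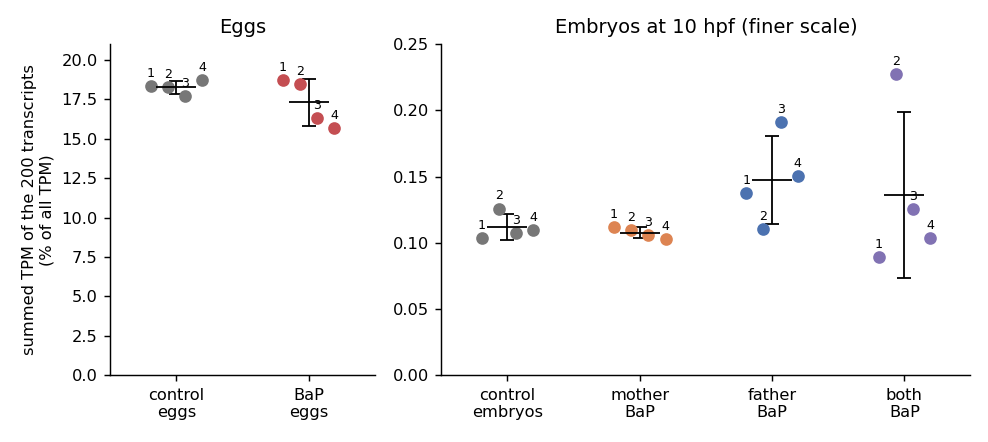
Summed TPM of the 200 transcripts as a percent of all TPM in each of the 24 libraries (points, numbered by replicate), with eggs on the left axis and 10 hpf embryos on a finer axis on the right. Bars are group means and error bars are SD (n = 4); the sum fell from 18.3% in control eggs to 0.112% in control embryos, and both-BaP replicate 2 (0.227%) and father-BaP replicate 3 (0.191%) were the highest embryos.

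The control egg means of the members ran from 184.8 to 5489 TPM, with a median of 622.5. The most abundant was ENSDART00000123026.4, 700 bases long, with 6746, 4864, 5942 and 4404 TPM in control eggs and 4578, 5490, 4351 and 3786 TPM in BaP eggs. At 10 hpf it had 2.62, 11.1, 5.65 and 3.85 TPM in both-BaP embryos, all far below every egg. In father-BaP embryos it had 8.66, 7.24, 35.3 and 7.32 TPM, with replicate 3 apart from the other 3. The second, ENSDART00000173226.2, 753 bases long, had 4413, 5393, 5588 and 6290 TPM in control eggs and 2917, 4903, 5502 and 3245 TPM in BaP eggs. In both-BaP embryos it had 5.51, 9.24, 4.08 and 7.12 TPM.

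The edges of the choice were not gaps in the data. The 5 members nearest the ratio limit kept 1.85% to 1.97% of their egg level, and the 5 rows just outside kept 2.05% to 2.2%. By egg level, the 5 last members had 184.8 to 191.9 TPM, and the 5 next rows that met the ratio had 176.3 to 182.4 TPM.

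The members were of middling length for abundant egg RNA. Their median length was 1319 bases (range 360 to 7715), and 81 of them (40.5%) were under 1000 bases. The 536 other rows at least as abundant in control eggs had a median of 923 bases, and the 11397 other rows of at least 10 TPM had a median of 1898 bases. Those 2 sets also show how far the rule reached: the 536 had a median control embryo level of 124% of the egg level, and the 11397 a median of 44.8%. Salmon divides reads shared between transcripts by estimate, and 21 members (10.5%) had whole-number counts (within 1e-06) in every library, against 15.3% of the 536 and 20.6% of the 11397. Counts of most members thus included, in at least 1 library, reads divided with other transcripts, and a change of 1 member can be a different division of reads among isoforms.

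By their range, egg libraries differed more over the members than over other abundant transcripts. Over all 8 eggs, 135 members (67.5%) stayed within a 2-fold range, against 84.5% of the 536 equally abundant rows and 79.3% of the 11397. The range passed 10-fold for 13 members (6.5%), against 1.31% and 3.30%. Of all 824 rows that met the ratio, members included, 57.2% stayed within 2-fold and 9.47% passed 10-fold, so this was not particular to the members. The median coefficient of variation in control eggs was 11.6% for members, 9.01% for the 536 and 11.9% for the 11397. In BaP eggs it was 14.9%, 10.3% and 12.1%. ENSDART00000150446.2 had 1762, 1065, 2.55 and 1550 TPM in control eggs and 6.03, 2.02, 1.72 and 4.53 TPM in BaP eggs. It was thus almost missing from control egg replicate 3 as well as from every BaP egg. ENSDART00000143079.3 had 707, 784, 290 and 774 TPM in control eggs and 315, 0, 49.2 and 320 TPM in BaP eggs, so the egg groups overlapped. ENSDART00000180037.1 had 477, 416, 185 and 479 TPM in control eggs and 20.8, 352, 316 and 416 TPM in BaP eggs, and only BaP egg replicate 1 was low. Such members were low in different libraries, not in 1 library throughout.

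The comparison of BaP eggs with control eggs shares the control eggs that chose the members, so it is given as a description. In edgeR's quasi-likelihood test 0 of the 200 members passed an adjusted p of 0.05, and 0% of all 29023 rows tested passed in either direction. DESeq2 called 2, both lower in BaP eggs. The share of all rows that DESeq2 called was not taken, here or in the comparisons below. At an unadjusted p under 0.05, edgeR gave 3 members higher and 15 lower, where 1.99% and 1.61% of all rows were. These 18 became 11 without control egg replicate 4, 28 without BaP egg replicate 2 and 35 without BaP egg replicate 1. The median member was lower in BaP eggs by a difference of -0.08 in log2(TPM + 0.1), with 145 members below 0, while rows of at least 1 TPM in eggs had a median of 0.03. The control eggs chose the members for high values there, which favours lower values in any other eggs.

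ENSDART00000135717.3 had the smallest p among members higher in BaP eggs, with 3786, 2393, 3182 and 2831 TPM against 2000, 2001, 2194 and 1896 TPM in control eggs. The groups did not overlap, which held for 2 members higher and 6 lower (1.91% and 0.827% of all rows tested). Its log2 fold change of 0.56 ± 0.14 (SE) did not pass (edgeR adjusted p = 0.9998). ENSDART00000148168.3 had 1465, 1370, 1055 and 1391 TPM in BaP eggs and 955, 1113, 1192 and 991 TPM in control eggs, with overlap (edgeR adjusted p = 0.9998). On the lower side, ENSDART00000115331.4, 4509 bases long, had 668, 568, 469 and 539 TPM in BaP eggs and 790, 825, 865 and 669 TPM in control eggs. Every BaP egg was below every control egg, and the log2 fold change was -0.52 with an SE of 0.12 (adjusted p = 0.9998 in edgeR and 0.0496 in DESeq2). ENSDART00000150446.2, given above, had the smallest p of all members in edgeR (adjusted p = 0.9998), while DESeq2 gave an adjusted p of 1.60e-07. Without control egg replicate 3, the library that lacked it, edgeR called it (adjusted p = 0.0104).

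The fall from egg to embryo recurred in libraries that had no part in the choice. Mother-BaP embryos kept a median of 0.559% of the level in BaP eggs, and 195 of the 200 members were under 2%, against 6.81% of rows of at least 10 TPM in BaP eggs. Both-BaP embryos kept a median of 0.728% of the BaP egg level, with 181 members under 2% (5.32% of rows). Father-BaP embryos, set against the control eggs used by the rule, kept a median of 0.770%, with 188 under 2% (5.64%). The median in control embryos, where the rule set the limit, was 0.574%. The highest member kept 2.86% in mother-BaP, 3.72% in father-BaP and 5.71% in both-BaP embryos. That both-BaP maximum was ENSDART00000139174.2, with 5.53, 63.6, 10.4 and 4.25 TPM, and rested on replicate 2: without that library it kept 1.83%. The highest level kept by any member was then 7.25%, by ENSDART00000150446.2. A high percent can come from a low egg level. With replicate 2 included, that member kept 5.44% of a BaP egg mean of only 3.57 TPM, with 0, 0, 0 and 0.777 TPM in both-BaP embryos. Without replicate 2 the both-BaP median over all members was 0.585%, with 193 under 2%.

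All 200 members were lower in both-BaP embryos than in BaP eggs in edgeR (adjusted p under 0.05), where 36.5% of all rows tested were, with a median log2 fold change of -6.66. The members passed the filter on low counts through the egg libraries and so had to differ, and the count is a description. In 196 of them every embryo library was below every egg library (42.8% of rows). No member was called higher (37% of rows).

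**Figure D2:**
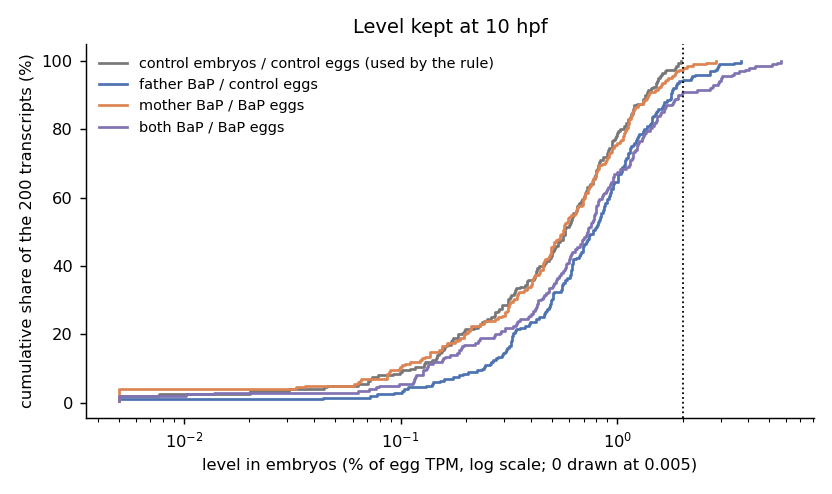
Cumulative share of the 200 transcripts (y axis, %) by the level kept at 10 hpf, as a percent of the mean egg TPM (x axis, log scale, 0 drawn at 0.005), with 1 line per cross. The dotted line marks 2%, the limit of the rule in control embryos; the mother-BaP line runs along the control line (medians 0.559% and 0.574%), and the father-BaP (0.770%) and both-BaP (0.728%) lines lie to its right.

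Within the set, the level kept was graded. These levels are ratios of TPM, a share of each library, so they do not measure the number of molecules removed. In mother-BaP embryos 21 members kept under 0.1% of the egg level, 70 kept 0.1% to under 0.5%, 61 kept 0.5% to under 1%, 43 kept 1% to under 2%, and 5 kept 2% or more. In father-BaP embryos the same classes held 6, 54, 69, 59 and 12 members. In both-BaP embryos they held 11, 56, 68, 46 and 19, and the last class held 7 without replicate 2. Members at 0 in all 4 libraries numbered 8 in mother-BaP, 2 in father-BaP, 2 in both-BaP and 4 in control embryos.

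The order of members by level kept was much the same in crosses that share no library. Across the 200 members, Spearman's rho was 0.890 between father-BaP embryos over control eggs and mother-BaP embryos over BaP eggs. This is a description across transcripts, which are not independent replicates and share transcript length and read division in both ratios. Longer members kept slightly more: in mother-BaP embryos the 100 members of 1327 to 7715 bases kept a median of 0.719%, and the 100 members of 360 to 1311 bases kept 0.424%. The correlation of length with level kept there was weak (rho = 0.260, n = 200 transcripts).

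**Figure D3:**
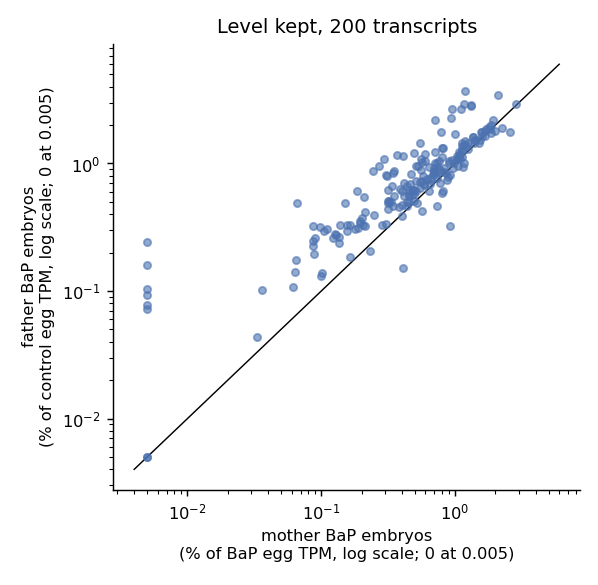
Level kept at 10 hpf by each of the 200 transcripts in mother-BaP embryos (x axis, % of BaP egg TPM) and father-BaP embryos (y axis, % of control egg TPM), both on log scales with 0 drawn at 0.005. The line marks equal values; most points lie above it (medians 0.559% and 0.770%), and the order of transcripts was shared (rho = 0.890).

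At 10 hpf 2 members were at 0 in all 16 embryo libraries. ENSDART00000151795.3 had 753, 761, 536 and 529 TPM in control eggs and 700, 647, 770 and 455 TPM in BaP eggs, so it was present in every egg. The other was ENSDART00000180037.1, given above. A further 32 members were at 0 in 1 to 14 embryo libraries, and 166 had a count in every one. For counted reads, 0 allows up to 3 counts, so 0 means not detected at this depth and does not show absence. Counts here are estimates, so a 0 can also arise where shared reads were assigned to another transcript.

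The embryo levels rested on far fewer reads than the egg levels. The median member had a mean of 17722 estimated counts in BaP eggs and 65.5 in control embryos. Counting error at that depth is a coefficient of variation (CV) of 12.1% in control embryos, and the median CV among the 4 control embryos was 26.6%. The median CV was 29.6% in mother-BaP, 36.8% in father-BaP and 46.6% in both-BaP embryos, while counting error was 10.1% to 12% there. By these medians the spread between libraries was larger than counting error, which was not compared member by member. In each embryo library 13 to 46 members had under 10 counts, where counting error is larger. The part of read division in the spread was not separated.

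Most of the 200 transcripts had lower mean levels in mother-BaP than in father-BaP embryos, and none of these differences passed in edgeR. The difference mother-BaP minus father-BaP in log2(TPM + 0.1) had a median of -0.45 over the 200 members, with a 10th percentile of -1.53, and was below 0 for 179 of them. Rows of at least 1 TPM in eggs had a median of 0.05, with 58.2% above 0. Of the 185 members tested, 0 passed in edgeR (0% of rows called lower, smallest member adjusted p = 0.123), and DESeq2 called 2, both lower in mother-BaP embryos. At an unadjusted p under 0.05 edgeR gave 42 members lower in mother-BaP embryos and 0 higher, against 4.53% and 6.1% of all rows. Over all 200 members, the groups did not overlap for 18, all lower in mother-BaP embryos, against 1.17% of tested rows (6.96% of tested rows were higher without overlap). Father-BaP replicate 3 carried part of this: without it the median was -0.28 and 18 members had an unadjusted p under 0.05. Neither group chose the members.

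ENSDART00000173226.2 had 3.46, 7.12, 5.19 and 5.06 TPM in mother-BaP embryos and 10.7, 9.89, 29.5 and 10.7 TPM in father-BaP embryos. Every father-BaP library was above every mother-BaP library, and replicate 3 was far above the rest. The log2 fold change of mother-BaP over father-BaP was -1.62 with an SE of 0.36 (adjusted p = 0.123 in edgeR and 0.00336 in DESeq2). ENSDART00000021620.7, a 777-base transcript with 2145 to 2575 TPM over all 8 eggs, had 2.31, 2.58, 2.12 and 2.09 TPM in mother-BaP and 3.45, 2.68, 13.2 and 9.57 TPM in father-BaP embryos. These groups did not overlap either, and the log2 fold change was -1.74 with an SE of 0.43 (adjusted p = 0.167 in edgeR and 0.0169 in DESeq2). In the other direction ENSDART00000151115.2 had 2.21, 0.685, 1.60 and 3.15 TPM in mother-BaP and 1.44, 0.750, 0.697 and 1.22 TPM in father-BaP embryos, which overlapped (edgeR adjusted p = 0.640). ENSDART00000138576.2 had 3.77, 4.55, 4.07 and 4.75 TPM in mother-BaP and 2.29, 3.51, 4.01 and 3.50 TPM in father-BaP embryos, also with overlap (edgeR adjusted p = 0.743).

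Most members also had lower mean levels in both-BaP than in father-BaP embryos, and 1 of these differences passed. The median difference, both-BaP minus father-BaP, was -0.37 in log2(TPM + 0.1), with 174 members below 0, against a median of 0.10 over rows of at least 1 TPM in eggs. In edgeR 1 of the 185 members tested passed, lower in both-BaP embryos, where 2.08% of all rows were called lower and 3.16% higher. At an unadjusted p under 0.05 there were 26 members lower and 0 higher, against 9.07% and 11% of rows. That count was 8 without father-BaP replicate 3, 13 without both-BaP replicate 1 and 42 without father-BaP replicate 2. The member called was ENSDART00000173226.2, with both-BaP and father-BaP values given above and a log2 fold change of -1.32 with an SE of 0.36 (adjusted p = 0.0451 in edgeR). The call was lost when father-BaP replicate 1, 3 or 4 or both-BaP replicate 1, 3 or 4 was left out (edgeR adjusted p from 0.0574 to 0.126). Its groups did not overlap, which over all 200 members held for 2 lower and 1 higher (1.16% and 11.4% of tested rows).

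The count depended on both-BaP replicate 2, which was high for many members: without it edgeR called 15 members, all lower in both-BaP embryos, and 77 had an unadjusted p under 0.05. The share of all rows called without that library was not taken, so neither count can be read as particular to the members. ENSDART00000021620.7 had 1.58, 3.96, 2.89 and 2.37 TPM in both-BaP embryos, overlapping father-BaP embryos at replicates 2 and 3, and missed the threshold with that library (edgeR adjusted p = 0.0546) and passed without it (edgeR adjusted p = 0.0489). The members of smallest p in the other direction had ranges that overlapped. ENSDART00000003170.5 had 13.4, 45, 11.7 and 16.5 TPM in both-BaP and 12.8, 11.5, 14.6 and 13.6 TPM in father-BaP embryos (edgeR adjusted p = 0.373), a difference carried by replicate 2. ENSDART00000151115.2 had 2.61, 1.21, 1.11 and 2.79 TPM in both-BaP embryos (edgeR adjusted p = 0.498).

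Both-BaP and mother-BaP embryos, which share the BaP-fed mother and differ in the father, were closer. The median difference, both-BaP minus mother-BaP, was 0.12, with 135 members above 0, against 0.05 over rows of at least 1 TPM in eggs. Of the 185 members tested 0 passed in edgeR (0% of rows), and DESeq2 also called 0. Over all 200 members the groups did not overlap for 2 higher and 0 lower (2.97% and 0.683% of tested rows). At an unadjusted p under 0.05 edgeR gave 11 members higher and 0 lower (3.74% and 2.87% of rows). This count was unstable: 0 with the replicate block, 2 with only the 2 groups in the fit, 3 or 4 without mother-BaP replicate 2, 3 or 4 or both-BaP replicate 2, 20 without mother-BaP replicate 1, and 27 to 32 without both-BaP replicate 1, 3 or 4. Without both-BaP replicate 2 the median was -0.03. ENSDART00000152742.2 had 0.314, 2.80, 0.595 and 0.474 TPM in both-BaP and 0.531, 0.333, 0.279 and 0.237 TPM in mother-BaP embryos (edgeR adjusted p = 0.709). ENSDART00000077577.7 had 0.642, 21.8, 1.76 and 0.856 TPM in both-BaP and 1.54, 1.31, 0.881 and 0.825 TPM in mother-BaP embryos (edgeR adjusted p = 0.712). Both were far higher in both-BaP replicate 2 than in any other of these libraries, and both-BaP replicate 3 was slightly above every mother-BaP library. Of those lower, ENSDART00000173215.2 had 0.708, 0, 0.650 and 0.536 TPM in both-BaP and 2.91, 4.14, 1.12 and 0 TPM in mother-BaP embryos, and ENSDART00000138576.2 had 2.47, 3.96, 2.12 and 3.93 TPM in both-BaP embryos, and neither passed (edgeR adjusted p = 0.767 and 0.779).

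Comparisons with control embryos share the libraries that chose the members for low values, which favours higher values elsewhere, so they are given as descriptions. The 3 comparisons also share those controls with each other. Father-BaP embryos had a median difference from control embryos of 0.27 in log2(TPM + 0.1), with 166 members above 0, against -0.04 over rows of at least 1 TPM in eggs. In edgeR 0 of 185 members tested passed (0.00971% of rows were called higher and 0.414% lower), and DESeq2 called 1. An edgeR fit of only these 2 groups called 7 of the 177 members it tested, all higher, with no share of all rows taken. At an unadjusted p under 0.05 there were 46 members higher and 0 lower (4.53% and 6.56% of rows), and 26 did not overlap, all higher (1.36%). Without father-BaP replicate 3 the median was 0.12 and 18 members had an unadjusted p under 0.05, and without control replicate 1 or 4 there were 24 and 27.

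ENSDART00000106244.5, the member of smallest p, had 5.31, 4.45, 6.99 and 5.82 TPM in father-BaP embryos and 3.71, 4.49, 3.98 and 4.30 TPM in control embryos, which overlapped at 1 library (edgeR adjusted p = 0.124, DESeq2 adjusted p = 0.0228). ENSDART00000176962.2 had 3.15, 2.55, 6.10 and 3.57 TPM against 2.15, 2.86, 2.04 and 2.23 TPM (edgeR adjusted p = 0.193). On the lower side, ENSDART00000104107.5 had 0.195, 0.939, 5.27 and 2.15 TPM against 1.24, 2.88, 6.14 and 5.71 TPM in control embryos (edgeR adjusted p = 0.800). Its egg levels ranged over 10-fold, from 17.9 to 836 TPM. ENSDART00000151115.2, with father-BaP values given above, had 1.11, 2.11, 2.05 and 0.648 TPM in control embryos (edgeR adjusted p = 0.838).

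Mother-BaP embryos had a median difference from control embryos of -0.04, with 88 members above 0 and 109 below, against 0.00 over rows of at least 1 TPM in eggs. In edgeR 0 of 185 members passed (0% of rows), DESeq2 called 0, and an unadjusted p under 0.05 was reached by 1 member higher and 6 lower (2.04% and 2.14% of rows). Over all 200 members the groups did not overlap for 1 higher and 6 lower (1.52% and 1.71% of tested rows). The 7 members with an unadjusted p under 0.05 became 12 without mother-BaP replicate 3. Those of smallest p were at 0 in several libraries. ENSDART00000142714.3 was at 0 in all 4 control embryos and had 0, 1.73, 1.63 and 2.77 TPM in mother-BaP embryos. ENSDART00000138713.3 was at 0 in all 4 mother-BaP embryos and had 0, 0.875, 1.72 and 1.17 TPM in control embryos. ENSDART00000143079.3 had 0.450, 0, 0 and 0 TPM in mother-BaP and 2.66, 2.74, 9.08 and 3.41 TPM in control embryos. It was among the transcripts low in several BaP eggs, as given above. ENSDART00000137794.2 had 3.88, 2.79, 1.96 and 3.75 TPM against 2.28, 2.18, 2.86 and 1.70 TPM in control embryos, with overlap. The edgeR adjusted p was 1 for each of these 4.

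Both-BaP embryos had a median difference from control embryos of 0.00, with 102 members above 0 and 96 below, against 0.06 over rows of at least 1 TPM in eggs. In edgeR 0 of 185 members passed (0.00324% of rows were called higher), and DESeq2 called 1. At an unadjusted p under 0.05 there were 31 members higher and 2 lower (5.5% and 4.88% of rows). Over all 200 members the groups did not overlap for 2 higher and 0 lower (3.43% and 1.26% of tested rows). At an unadjusted p under 0.05 the 33 in all became 7 without both-BaP replicate 2, 15 to 19 without control replicate 1, 2 or 3, 14 with only the 2 groups in the fit and 6 with the replicate block. ENSDART00000115157.4 had 1.10, 1.85, 0.975 and 0.574 TPM against 1.31, 2.46, 2.89 and 1.77 TPM in control embryos (edgeR adjusted p = 0.424). ENSDART00000132207.2 had 10.1, 11.4, 11.9 and 12.2 TPM against 11.6, 13.9, 18 and 16.7 TPM (edgeR adjusted p = 0.464). Both pairs of groups overlapped.

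**Figure D4:**
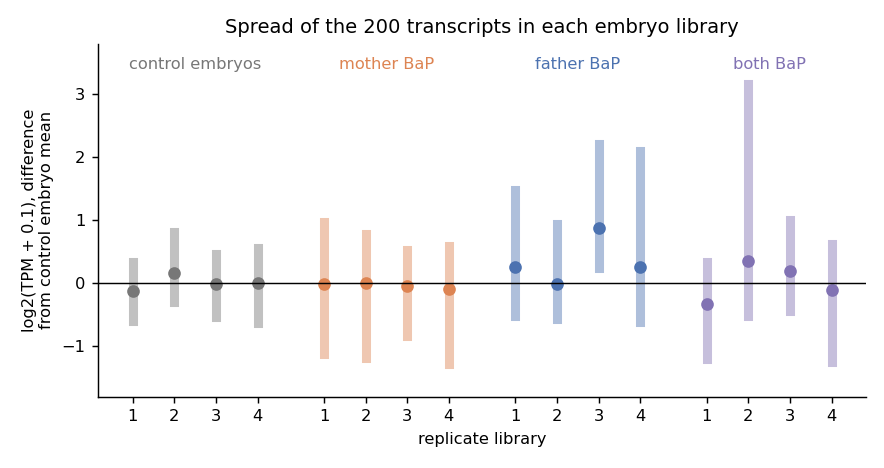
Difference of each of the 16 embryo libraries from the control embryo mean in log2(TPM + 0.1) over the 200 transcripts; points are medians and bars run from the 10th to the 90th percentile of transcripts. Father-BaP replicate 3 had the highest median (0.88), and both-BaP replicate 2 had a median of 0.35 with the longest upper tail.

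The high embryo libraries were high in different ways. Father-BaP replicate 3 was shifted as a whole: its median difference from the control embryo mean was 0.88, and 91 members were over 2-fold above that mean. The medians of father-BaP replicates 1, 2 and 4 were 0.26, -0.01 and 0.26, with 38, 18 and 47 members over 2-fold. Both-BaP replicate 2 had a median of 0.35 and a long tail, with 52 members over 2-fold and 35 over 4-fold. The other both-BaP libraries had medians of -0.32, 0.19 and -0.11, with 7, 22 and 13 members over 2-fold. Father-BaP replicate 3 also had the lowest total of all libraries (26010776 estimated counts), and the part of depth in its values was not tested.

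Set against the mean of the other 3 both-BaP libraries, replicate 2 was within 2-fold for 133 members and over 4-fold higher for 34. The 10 members with the largest added TPM made up 58.2% of the difference in summed TPM. In replicate 2 itself 36 members were over 2% of their BaP egg level, against 4, 5 and 12 in replicates 1, 3 and 4. The 34 members, picked after their values were seen and given no test, were at a median of 4.26% of the BaP egg level there, with a range of 0.498% to 17.6%. The 133 members were at a median of 0.734%.

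Of the 34, the 2 members of smallest p against control embryos are given by library. ENSDART00000159861.2, 556 bases long, had 1.23, 140, 8.59 and 1.58 TPM in both-BaP embryos and 16.3, 9.35, 17.6 and 24.9 TPM in father-BaP embryos. In mother-BaP embryos it had 13.9, 12.1, 0.598 and 0.634 TPM, and in control embryos 0.797, 1.48, 1.48 and 1.97 TPM. All 4 father-BaP libraries, 2 mother-BaP libraries and 2 both-BaP libraries were thus above every control embryo. ENSDART00000002166.8, 1722 bases long, had 3.66, 137, 11.5 and 3.53 TPM in both-BaP, 24.1, 16, 17 and 39.8 TPM in father-BaP, 17.9, 9.84, 3.30 and 3.05 TPM in mother-BaP and 3.06, 3.74, 3.23 and 5.01 TPM in control embryos. The same libraries were high for both, and in edgeR neither passed against control embryos (adjusted p = 0.364 for each). ENSDART00000159861.2 was the 1 member that DESeq2 called in that comparison (adjusted p = 0.0219). For ENSDART00000002166.8 DESeq2 gave no adjusted p there.

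Over all 34, the median difference from the control embryo mean was 1.43, 0.69, 1.58 and 2.02 in father-BaP replicates 1 to 4, and 0.84, 0.46, -0.25 and -0.19 in mother-BaP replicates. In both-BaP replicates it was -0.38, 3.17, 0.72 and -0.23, where the choice of the 34 itself favours replicate 2. For the 133 members it was 0.15, -0.07, 0.70 and 0.20 in father-BaP and 0.18 in both-BaP replicate 2. Father-BaP replicate 3 was raised for the 133 as well. Each of the 4 father-BaP replicates had a higher median over the 34 than over the 133. For both-BaP replicate 2 that gap follows from how the 2 sets were chosen. In eggs of either diet these RNAs were abundant: ENSDART00000159861.2 had 1552 to 2413 TPM and ENSDART00000002166.8 had 824 to 1046 TPM over all 8 eggs.

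**Figure D5:**
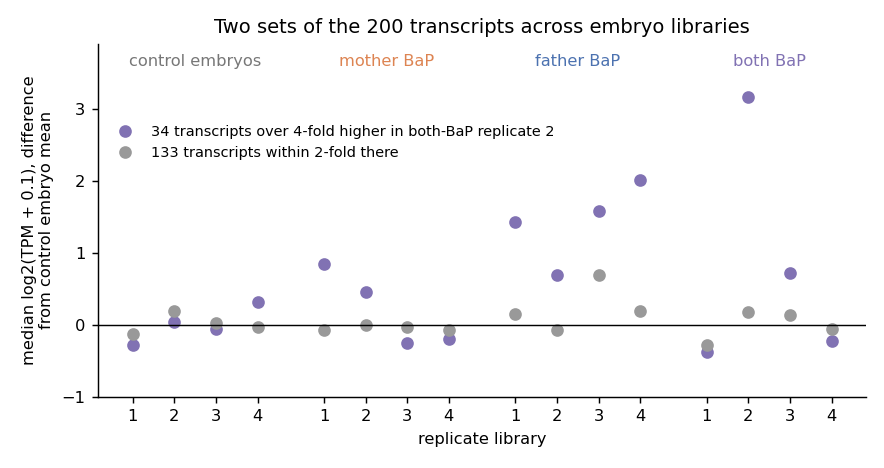
Median difference from the control embryo mean in log2(TPM + 0.1) in each embryo library, for the 34 transcripts over 4-fold higher in both-BaP replicate 2 than in the other 3 both-BaP libraries and for the 133 within 2-fold there. The 34 were also high in father-BaP replicates (0.69 to 2.02), in mother-BaP replicates 1 and 2 (0.84 and 0.46) and in both-BaP replicate 3 (0.72). The 133 were highest in father-BaP replicate 3 (0.70).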

How the data were processed

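RNA was measured in 24 ribosome-depleted libraries, and 32 bisulfite samples were not analysed here. Per the submitters' processing notes, FastQC, Salmon and DESeq2 were used with build GRCz11 (versions not given in the sources used here). The deposited tables give, per the file headers, TPM and estimated counts (expected counts) per row. Of 57192 rows, 0 matched the name tables, so lists of named genes and markers were not applied. The members and lists were chosen with earlier results of these data known.

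Levels are deposited TPM, and medians used log2(TPM + 0.1). Estimated counts were rounded and tested over all rows with edgeR 4.0.16 (R 4.3.3; TMM, filterByExpr, quasi-likelihood test, Benjamini-Hochberg, called under 0.05): eggs alone, all 16 embryo libraries in 1 fit, and both-BaP embryos with BaP eggs. DESeq2 1.42.0, other scalings, filters and left-out libraries were alternatives. Shares of all rows called were taken in the main edgeR fit only, so counts from the alternatives have none beside them. The filter left out 15 members in embryos. Named members were the 2 of smallest p per direction and comparison, among those tested, and the 2 of highest egg level. Others named by value were chosen after it was seen. The test was tried on simulated counts. Counting errors cover counting only.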

Additional observations from a re-analysis of the deposited data

Results flagged for a closer look

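For each named member, the 2 groups of the comparison that named it were checked for a library far from the other 3 of its group of 4. The 60 groups checked were counted per comparison, so some entered more than once. The 8 groups that held such a library are listed once each. Chance gives about 1 in 20, but with these repeats 8 of 60 is not a strict rate to set beside it. Both-BaP replicate 2 was far above the other 3 for 5 members: ENSDART00000159861.2 (140 TPM), ENSDART00000002166.8 (137 TPM), ENSDART00000003170.5 (45 TPM), ENSDART00000077577.7 (21.8 TPM) and ENSDART00000152742.2 (2.8 TPM). Father-BaP replicate 3 stood apart for ENSDART00000173226.2 (29.5 TPM). Groups outside a member's comparison were not checked. In father-BaP embryos, ENSDART00000123026.4 had 8.66, 7.24, 35.3 and 7.32 TPM, and ENSDART00000135717.3 had 3.77, 3.30, 15.9 and 3.02 TPM, both highest in replicate 3. For ENSDART00000143079.3, mother-BaP replicate 1 (0.45 TPM, the others at 0) and control embryo replicate 3 (9.08 TPM) stood apart. The members were named by p in these same libraries, so these groups are not a random draw.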

How the results depend on the processing

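With DESeq2 the number of members called was 2 in eggs, 1 in father-BaP against control, 1 in both-BaP against control, 7 in both-BaP against father-BaP and 2 in mother-BaP against father-BaP embryos. No share of all rows was taken for the calls in this section, so none is read as particular to the members. A fit of only the 2 groups called 7 in father-BaP against control, all higher in father-BaP embryos, and 0 in both-BaP against father-BaP. The single call in both-BaP against father-BaP became 0 with no low-count filter, 0 with a stricter one and 0 with the replicate block. Numbers were to be taken as pairs only where all 4 same-numbered correlations of deviations were over 0.1, and no comparison met this. Correlations were 0.054 to 0.266 in eggs and 0.079 to 0.290 for both-BaP and mother-BaP, with 3 of 4 over 0.1 in each, and 0.019 to 0.072 for both-BaP and control; the replicate block gave 0 calls in the other comparisons between like stages.

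Leaving out 1 library, calls ranged from 0 to 1 in eggs (1 without control egg replicate 3), from 0 to 15 in both-BaP against father-BaP (15 without both-BaP replicate 2, 3 without father-BaP replicate 2, 0 without father-BaP replicate 3, both-BaP replicate 1 or both-BaP replicate 4) and from 197 to 200 between both-BaP embryos and BaP eggs. The median difference ranged from -0.57 to -0.28 for mother-BaP minus father-BaP, 0.12 to 0.40 for father-BaP minus control, -0.48 to -0.19 for both-BaP minus father-BaP and -0.03 to 0.22 for both-BaP minus mother-BaP. It ranged from -0.087 to 0.0085 for mother-BaP minus control. The log2 fold change of ENSDART00000003170.5 in both-BaP over father-BaP ranged from -0.065 to 0.80, and that of ENSDART00000077577.7 in both-BaP over mother-BaP from -0.13 to 2.80, the low ends without both-BaP replicate 2.

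As a share of counts, members took 11.9% in control eggs, 11.3% in BaP eggs, 0.0819% in control, 0.0826% in mother-BaP and 0.113% in father-BaP embryos. Both-BaP embryos had 0.109% ± 0.060 (SD, n = 4), a mean that rested on replicate 2. Their replicates 1 to 4 had 0.0675%, 0.198%, 0.0891% and 0.0820%, and only replicate 2 was above the father-BaP mean. With a ratio limit of 0.01 the shares of TPM in those groups, both-BaP left out, were 14.9%, 14.1%, 0.0601%, 0.0601% and 0.0916%. With members chosen on CPM, 17.1% was found in control eggs and 0.101% in mother-BaP embryos. The median for mother-BaP minus father-BaP was -0.35 with a pseudocount of 1, -0.54 on CPM and -0.56 with the limit of 0.01. Over only the 21 members with whole counts it was -0.60, and father-BaP minus control was 0.72 for these 21. The cause of these shifts was not tested.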
